A study of Mus musculus with 6 samples.

Results

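Imprinted genes are transcribed mainly from the copy inherited from one parent, and the choice is held by DNA methylation that was set in the egg or the sperm at an imprinting control region. Many of them lie in clusters in which a maternally expressed gene and a paternally expressed gene are neighbours under the same control region, and many act on fetal growth. Most are active before birth and are turned down in adult tissues, although some come back in tumors.

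The 10 imprinted genes described here are *H19*, *Igf2*, *Peg3*, *Zim1*, *Cdkn1c*, *Asb4*, *Slc38a4*, *Igf2r*, *Airn* and *Grb10*, which are 10 of the 36172 genes in the deposited table of RPKM values (read counts divided by gene length and by library depth). They were chosen by name, and with their levels in these libraries already known, so their differences between genotypes are given as a description and without a test. In mice, 6 of them are known to be expressed from the maternal copy (*H19*, *Zim1*, *Cdkn1c*, *Asb4*, *Igf2r*, *Grb10*) and 4 from the paternal copy (*Igf2*, *Peg3*, *Airn*, *Slc38a4*). The reads were not assigned to parental copies, so "maternal" and "paternal" below are background and not measurements.

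The study asked what a missense mutant p53 does in intestinal tumor cells that a loss of p53 does not. Poly(A) RNA was sequenced from organoids, which are cultures of tumor epithelium grown in a gel, that came from small intestinal tumors of C57BL/6 mice aged 15 to 20 weeks. All 3 genotypes carried a truncation of *Apc* at codon 716 with loss of the other *Apc* copy, and they differed at *Trp53*, with 2 libraries each. *Trp53* +/+ organoids had normal p53. *Trp53* flox/flox organoids had both copies of the LSL-R270H allele, in which a stop cassette ahead of the gene keeps it silent, and so served as p53-null. *Trp53* R270H/R270H organoids had the same allele with the cassette removed by tamoxifen-induced Cre, driven by the villin promoter in gut epithelium, so that both copies made mutant p53 R270H. The sources used here do not say whether the 2 organoid preparations of a genotype came from different mice, so their spread may be partly technical.

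*Trp53* itself was 75.9 and 74.3 RPKM in the +/+ libraries, 1.73 and 2.48 in the flox/flox libraries and 72.8 and 82.7 in the R270H/R270H libraries, which fits the labels. No value in the table lay below 1 RPKM, and a gene at this floor may be at any lower level. Depth, estimated from the steps of 1 read in short RNA genes, was 44.25 to 47.35 M mapped reads in the 5 libraries with at least 13 such genes. The sixth, flox/flox replicate 1, had 7 such genes, and its estimate of 48.55 M is not relied on. That library also stood apart in having 391 of the 10042 genes that reached 4 RPKM in some library at the floor, against 121 to 170 in the other 5. On the log2(RPKM + 1) scale the 2 libraries of one genotype differed with a median s.d. across genes of 0.046 in +/+, 0.062 in R270H/R270H and 0.25 in flox/flox. *Xist*, the RNA that silences an X chromosome in female cells, was at the floor in the +/+ and R270H/R270H libraries and at 11.8 and 69.0 RPKM in flox/flox. The Y-linked *Ddx3y* was at 16.8 and 18.7 RPKM in +/+, 11.3 and 11.8 in R270H/R270H and at the floor in flox/flox. The sex of the mice therefore went with the flox/flox genotype, and the effects of sex and genotype cannot be told apart in any comparison with it. The Y-linked *Eif2s3y*, *Kdm5d* and *Uty* were likewise lower in R270H/R270H than in +/+. For *Eif2s3y* the values were 22.9 and 25.5 RPKM against 66.9 and 67.8. The reason for this difference was not tested.

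The 8 epithelial markers were above the floor in every library, and their summed level above it was 2726 and 2689 RPKM in +/+, 4262 and 4014 in flox/flox and 2220.0 and 2364 in R270H/R270H. It was thus highest in flox/flox. Of 13 fibroblast and smooth muscle markers, 12 were at the floor in each +/+ library, 11 in each R270H/R270H library, 13 in flox/flox replicate 1 and 7 in flox/flox replicate 2. Their summed level above the floor was 0.013 and 0.28 RPKM in +/+, 0 and 12.7 in flox/flox and 0.54 and 0.80 in R270H/R270H. In +/+ this was *Tagln* alone, at 1.01 and 1.28 RPKM, while *Acta2*, smooth muscle actin, was the highest of these markers in flox/flox replicate 2, at 11.5 RPKM, and in R270H/R270H, at 1.53 and 1.59. All 3 skeletal muscle markers were at the floor in all 6 libraries. Among endothelial and immune markers only *Cdh5* and *Cd68* rose above the floor, and both were lower in R270H/R270H than in +/+. *Cdh5* was 8.88 and 9.35 RPKM in +/+, 1 and 3.30 in flox/flox and 1.04 and 1 in R270H/R270H. *Cd68* was 10.2 and 9.87 RPKM in +/+, 2.06 and 11.1 in flox/flox and 2.22 and 2.41 in R270H/R270H. The part of these markers in the differences of the imprinted genes was not tested. In such bulk RNA, fewer cells that express a gene and less RNA per cell cannot be told apart.

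*H19* is a long noncoding RNA on chromosome 7 (chr7:142575530-142578146, minus strand, RefSeq on GRCm38.p6, the mm10 build) and carries the precursor of the microRNA miR-675 within an exon (chr7:142577064-142577147). Both mature forms are shown because they are the known processed product of *H19*, with the seed, bases 2 to 8, in capitals:
mmu-miR-675-5p: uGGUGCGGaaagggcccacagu
mmu-miR-675-3p: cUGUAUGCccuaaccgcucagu
Among the mature mouse microRNAs of the RefSeq table used here, 0 others share either seed. The precursor has its own entry, *Mir675*, which was at the floor in all 6 libraries, but poly(A) RNA libraries do not measure short mature microRNAs, so its level is not known from these data.

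*Peg3* (chr7:6703892-6730462) and *Zim1* (chr7:6674444-6696540) lie next to each other near the other end of chromosome 7, both on the minus strand. The 250 bases before a transcript start of these genes and of *Slc38a4* and *Asb4* are shown, from RefSeq on GRCm38.p6, because these 4 genes were higher in R270H/R270H than in +/+, with CG dinucleotides, the sites of DNA methylation, in capitals:
Peg3, chr7:6730420-6730669, minus strand: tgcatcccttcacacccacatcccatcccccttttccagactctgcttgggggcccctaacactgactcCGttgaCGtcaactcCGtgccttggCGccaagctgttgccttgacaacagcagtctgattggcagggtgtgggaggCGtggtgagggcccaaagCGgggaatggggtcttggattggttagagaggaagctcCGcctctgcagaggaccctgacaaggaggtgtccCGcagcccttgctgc
Zim1, chr7:6696433-6696682, minus strand: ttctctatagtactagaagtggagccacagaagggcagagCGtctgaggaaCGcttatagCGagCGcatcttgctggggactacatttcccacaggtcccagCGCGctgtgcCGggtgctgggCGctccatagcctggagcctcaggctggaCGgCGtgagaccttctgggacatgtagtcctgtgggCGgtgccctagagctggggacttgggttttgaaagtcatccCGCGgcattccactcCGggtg
Slc38a4, chr15:97055957-97056206, minus strand: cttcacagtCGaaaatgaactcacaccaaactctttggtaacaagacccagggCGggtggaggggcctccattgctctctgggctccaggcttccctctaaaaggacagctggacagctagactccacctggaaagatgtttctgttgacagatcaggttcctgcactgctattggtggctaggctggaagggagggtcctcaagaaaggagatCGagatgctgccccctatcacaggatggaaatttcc
Asb4, chr6:5383136-5383385, plus strand: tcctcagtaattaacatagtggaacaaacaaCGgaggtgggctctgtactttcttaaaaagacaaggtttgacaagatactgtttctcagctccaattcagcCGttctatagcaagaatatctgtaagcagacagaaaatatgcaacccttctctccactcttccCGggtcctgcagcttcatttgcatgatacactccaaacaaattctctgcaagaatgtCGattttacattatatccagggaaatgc
The *Peg3* and *Zim1* windows reach 43 and 108 bases into the gene spans given above, and the other 2 lie outside theirs. *Zim1* has 14 CG dinucleotides in this window, *Peg3* 8, *Asb4* 4 and *Slc38a4* 3, against a median of 6 over the 32851 windows of 27025 genes in the RefSeq promoter table. RefSeq windows were matched for 8 of the 10 genes, 15 windows in all. The window with most CG dinucleotides was that of *Grb10*, with 40. The GC box GGGCGG, read on both strands, was in 8 of the 15 windows and in 32.7% of all windows, TATAAA was in 2 and in 12.4%, and the p53 half-site consensus was in 1, the most downstream *Igf2* window, and in 7.13% of all windows. DNA methylation was not measured.

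**Figure D1:**
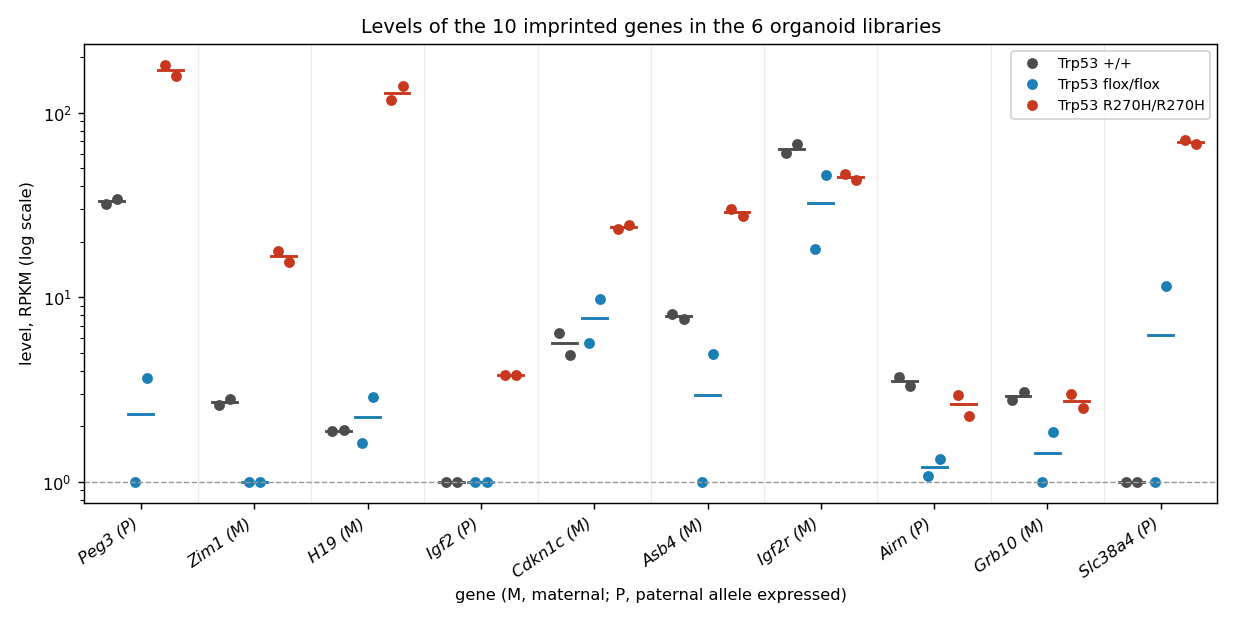
Level of each of the 10 imprinted genes in RPKM on a log axis; each point is 1 library, each short line the mean of the 2 libraries of a genotype, and the dashed line the floor of 1 RPKM. The R270H/R270H points of *Peg3*, *Zim1*, *H19*, *Igf2*, *Cdkn1c*, *Asb4* and *Slc38a4* lie above all other points of the same gene.

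In the *H19* and *Igf2* cluster both genes were highest in R270H/R270H. *H19*, the maternally expressed RNA, was 1.89 and 1.91 RPKM in +/+, 1.63 and 2.88 in flox/flox and 118 and 140.0 in R270H/R270H. Both mutant libraries stood far above the other 4, and the +/+ and flox/flox libraries overlapped. Its mean was 1.90 ± 0.014 (s.d., n = 2) in +/+, 2.26 ± 0.89 in flox/flox and 129 ± 15.8 in R270H/R270H, 67.9-fold above +/+ and 57.1-fold above flox/flox. By the exon length of 2460 bases in GENCODE, 1 RPKM of *H19* stands for about 109 to 116 reads at the estimated depths. *Igf2*, the paternally expressed growth factor of the same cluster (chr7:142650768-142666816), was at the floor in all +/+ and flox/flox libraries and at 3.79 and 3.80 RPKM in R270H/R270H. The mutant libraries were thus at least 3.79-fold above both other genotypes. The *Igf2* transcript level was low beside that of *H19* even where both were detected, with means of 3.79 ± 0.0086 and 129 ± 15.8 RPKM.

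In the *Peg3* domain both neighbours were also highest in R270H/R270H and lowest in flox/flox. *Peg3*, a paternally expressed zinc finger gene, was 32.2 and 34.2 RPKM in +/+, 1 (the floor) and 3.66 in flox/flox and 182 and 158 in R270H/R270H. The 3 genotypes did not overlap. Its mean was 33.2 ± 1.46 in +/+, 2.33 ± 1.88 in flox/flox and 170.1 ± 17.1 in R270H/R270H, 5.12-fold above +/+. The flox/flox mean, with 1 library at the floor, was 14.2-fold below +/+ and 73.0-fold below R270H/R270H. *Zim1*, a maternally expressed zinc finger gene beside it, was 2.63 and 2.81 RPKM in +/+, at the floor in both flox/flox libraries and 18.0 and 15.6 in R270H/R270H. It followed the same order as *Peg3* at a lower level, with means of 2.72 ± 0.13 and 16.8 ± 1.63 RPKM in +/+ and R270H/R270H, a 6.18-fold difference, and at least 16.8-fold between R270H/R270H and flox/flox. *Usp29*, the paternally expressed neighbour of *Peg3*, is named here after its values were seen. It was at the floor in all +/+ and flox/flox libraries and at 2.57 and 2.03 RPKM in R270H/R270H, below the 4 RPKM needed for a test.

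*Cdkn1c* encodes p57, an inhibitor of cyclin-dependent kinases, and is the maternally expressed growth-restricting gene of the *Kcnq1ot1* domain (chr7:143458339-143461059). It was 6.42 and 4.87 RPKM in +/+, 5.69 and 9.79 in flox/flox and 23.5 and 24.8 in R270H/R270H. The mutant libraries lay above the other 4, which overlapped. Its mean was 5.65 ± 1.09 in +/+, 7.74 ± 2.90 in flox/flox and 24.1 ± 0.87 in R270H/R270H, 4.28-fold and 3.12-fold higher than the other genotypes. GENCODE places an antisense RNA, *Gm44732*, over 625 exonic bases of *Cdkn1c*. Whether reads were counted by strand is not given in the sources used here, so the share of such reads is not known.

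*Asb4*, part of a ubiquitin ligase and maternally expressed in the *Peg10* and *Sgce* domain (chr6:5383386-5433022), was 8.12 and 7.65 RPKM in +/+, 1 and 4.91 in flox/flox and 30.1 and 27.8 in R270H/R270H. As for *Peg3*, the 3 genotypes did not overlap and flox/flox was lowest. Its means were 7.88 ± 0.33, 2.96 ± 2.77 and 28.9 ± 1.67 RPKM, so that R270H/R270H was 3.67-fold above +/+. The other genes of that domain in the list of imprinted genes used here, *Sgce* and *Peg10*, were not raised with it. *Sgce* was at the floor in all 6 libraries and *Peg10* was above it only in +/+, at a mean of 1.35 RPKM. Neighbours outside that list, among them *Pdk4*, are described below.

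*Slc38a4* encodes an amino acid transporter and is paternally expressed in placenta (chr15:96994816-97055956). It was at the floor in both +/+ libraries, 1 and 11.5 RPKM in flox/flox and 71.7 and 68.0 in R270H/R270H. Both mutant libraries stood above all others, while the flox/flox libraries differed from each other and 1 of them was no higher than +/+. The R270H/R270H mean of 69.8 ± 2.66 RPKM was at least 69.8-fold above +/+ and 11.1-fold above the flox/flox mean of 6.27 ± 7.46. The flox/flox library with 11.5 RPKM was replicate 2, which also had the highest fibroblast and smooth muscle markers, and the part of those cells in this value was not tested.

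The remaining 3 genes did not rise with mutant p53 against +/+. *Igf2r*, which encodes the receptor that takes up and degrades IGF2 and is maternally expressed, was 60.3 and 67.9 RPKM in +/+, 18.4 and 46.3 in flox/flox and 46.8 and 43.4 in R270H/R270H (chr17:12682406-12769706). The +/+ libraries lay above the other 4, and flox/flox and R270H/R270H overlapped. Its R270H/R270H mean of 45.1 ± 2.44 was 1.42-fold below the +/+ mean of 64.1 ± 5.38. *Airn*, the paternally expressed noncoding RNA that runs antisense across part of *Igf2r* and is known to silence it on that copy (chr17:12741311-12859884), was 3.71 and 3.32 RPKM in +/+, 1.07 and 1.33 in flox/flox and 2.97 and 2.29 in R270H/R270H. The 3 genotypes did not overlap, and *Airn* and *Igf2r* were both highest in +/+. In GENCODE the bodies of *Airn* and *Igf2r* share 28354 bases and their exons share 0, so reads of unspliced *Igf2r* RNA could be told from *Airn* only by strand.

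*Grb10*, a maternally expressed adaptor that dampens insulin and IGF1 receptor signalling (chr11:11930499-12037428), was 2.80 and 3.07 RPKM in +/+, 1 and 1.86 in flox/flox and 2.98 and 2.52 in R270H/R270H. The R270H/R270H and +/+ libraries overlapped, with means of 2.75 ± 0.32 and 2.93 ± 0.20 RPKM, and both lay above flox/flox.

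Counted over all 10 genes, both R270H/R270H libraries were above both +/+ libraries in 7, below in 2 and overlapping in 1. Among the 12412 genes above the floor in some library, both were above in 43.1% and both below in 35.4%. Against flox/flox, R270H/R270H was above in 9 genes and below in 0, where all genes gave 37.6% above and 27.2% below. Between flox/flox and +/+, flox/flox was above in 0 and below in 6, where all genes gave 26.7% and 33.7%. Since the 10 genes were picked with these levels known, their counts carry no weight against those shares. By parental copy, R270H/R270H was above +/+ in 4 of 6 maternally expressed and 3 of 4 paternally expressed genes, and below in 1 of each. In the *H19*/*Igf2*, *Peg3*/*Zim1* and *Igf2r*/*Airn* pairs the maternally and the paternally expressed gene thus stood on the same side of +/+.

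Limma, fitted to log2(RPKM + 1) of the 10042 genes that reached 4 RPKM in some library, was used for genes outside the 10, with an adjusted p under 0.05 as a call. It called 5.86% of all genes higher and 6.36% lower in R270H/R270H against +/+, 13.6% and 11% against flox/flox, and 4.38% and 6.9% in flox/flox against +/+. Of the 10 genes, 7 reached 4 RPKM.

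Most of the other imprinted genes were at the floor of 1 RPKM throughout, so their levels at or below it are unknown. Of 37 in the table, 21 were at the floor in all 6 libraries, 16 of them paternally and 5 maternally expressed, among them *Dlk1*, *Meg3*, *Ndn* and *Nnat*. Another 5 stayed under 4 RPKM and 11 were tested. In R270H/R270H against +/+ limma called 0 of the 11 higher, with 2 higher at an unadjusted p under 0.05, and called 1 lower. Their median difference was 0.24 on the log2 scale, beside 0.03 over all genes tested. That 1 gene was *Slc22a18*, a maternally expressed transporter of the *Kcnq1ot1* domain, at 16.0 and 16.8 RPKM in +/+, 8.24 and 10.46 in flox/flox and 8.59 and 10.02 in R270H/R270H. Both flox/flox and R270H/R270H were below +/+, by log2 differences of -0.75 and -0.76 (SE 0.15 each; limma adjusted p = 0.0394 and 0.0375). Of the 10 paternally expressed genes above the floor, both R270H/R270H libraries lay above both +/+ libraries in all but *Peg10*, which was lower. These 10 include all 5 that stayed under 4 RPKM. They also include *Snrpn* and *Snurf*, which are not separate loci, since the span of *Snurf* lies within that of *Snrpn*. Of the 6 maternally expressed genes above the floor, *Gnas* and *Ube3a* lay above, *Ascl2*, *Slc22a18* and *Kcnq1* below, and *Phlda2* overlapped. Over all genes 43.1% lay above and 35.4% below. This split was looked at with the values known and was not tested.

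Against flox/flox, limma called 2 other imprinted genes higher and 2 lower in R270H/R270H, with a median of 0.28 over the 11, beside 0.03 for all genes. *Plagl1*, a paternally expressed zinc finger regulator of growth, was 4.25 and 3.83 RPKM in +/+, 1 and 2.13 in flox/flox and 7.86 and 7.47 in R270H/R270H (log2 difference 1.79, SE 0.24, limma adjusted p = 0.0108 against flox/flox). *Impact*, a paternally expressed regulator of translation under stress, was 5.71 and 5.57, 4.27 and 3.56, and 7.80 and 7.14 RPKM in the same order (log2 difference 0.79, SE 0.13, limma adjusted p = 0.0176). Both thus had their highest values in the mutant libraries, and neither was called against +/+ (limma adjusted p = 0.0921 and 0.139). *Ascl2*, a maternally expressed factor of intestinal stem cells, was lower, at 21.1 and 17.1 RPKM in +/+, 38.8 and 28.4 in flox/flox and 8.16 and 10.8 in R270H/R270H (log2 difference -1.72, SE 0.22, limma adjusted p = 0.00984 against flox/flox). *Phlda2*, a maternally expressed brake on placental growth, was 5.14 and 6.54, 29.0 and 12.5, and 3.28 and 6.04 RPKM (log2 difference -1.87, SE 0.44, limma adjusted p = 0.0368). *Ascl2*, *Phlda2* and *Slc22a18* belong to the same domain as *Cdkn1c*, which was highest in R270H/R270H, so its maternally expressed genes did not share a direction.

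The 3 most abundant imprinted genes that were called in no comparison were *Kcnq1*, *Gnas* and *Ube3a*. *Kcnq1*, a potassium channel gene, had means of 56.9, 53.3 and 44.3 RPKM in +/+, flox/flox and R270H/R270H, *Gnas*, a G protein subunit, 41.4, 43.9 and 42.9, and *Ube3a*, a ubiquitin ligase imprinted in neurons, 19.9, 13.0 and 24.6. *Kcnq1ot1*, the paternally expressed noncoding RNA of that domain, named after its values were seen, was 1.74 and 1.82 RPKM in +/+, at the floor in flox/flox and 2.84 and 2.56 in R270H/R270H. It was under the filter and was not tested. In flox/flox against +/+ limma called 0 of the 11 higher (2 at an unadjusted p under 0.05) and 1 lower, *Slc22a18*, with a median of -0.05 beside -0.02 for all genes.

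These counts depended on single libraries, and so did the counts over all genes, whose ranges are given at the end. The dependence is thus not particular to imprinted genes. In R270H/R270H against +/+ limma called 0 of the 11 without +/+ replicate 1, +/+ replicate 2 or either R270H/R270H library (2 at an unadjusted p under 0.05 each time), and 7 without flox/flox replicate 1 or replicate 2. Against flox/flox the count was 1 without either +/+ library, 0 without either R270H/R270H library (3 and 4 unadjusted), 8 without flox/flox replicate 1 and 6 without replicate 2. In flox/flox against +/+ it was 0 without any 1 of the +/+ or R270H/R270H libraries (3 to 5 unadjusted), 4 without flox/flox replicate 1 and 8 without replicate 2.

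**Figure D2:**
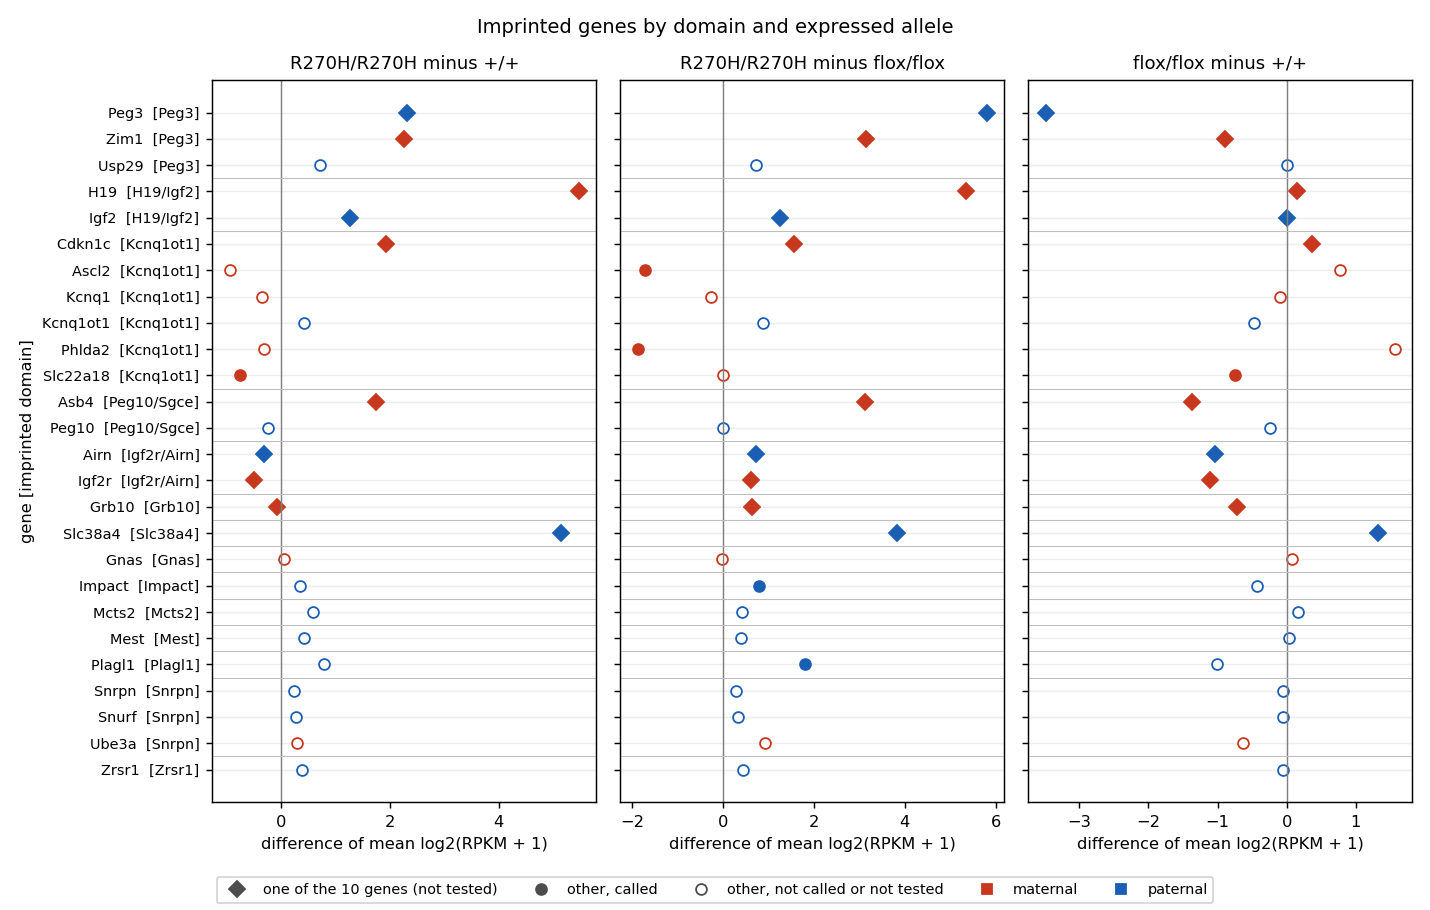
Difference of mean log2(RPKM + 1) between genotypes for the 10 genes (diamonds) and the 16 other imprinted genes above the floor (circles, filled where limma called them), grouped by imprinted domain and coloured by the copy known to be expressed. In the left panel *H19* and *Slc38a4* lie furthest to the right, at 5.48 and 5.15, and the other circles lie between *Ascl2* at -0.95 and *Plagl1* at 0.78.

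Genes near the 10 that were not in the imprinted list used here were compared next. Some of them, such as *Cd81* and *Osbpl5*, are known to be imprinted in placenta, so they are no set of non-imprinted genes. The table held 131 within 500 kb, of which 33 were tested. Limma called 3 higher and 8 lower in R270H/R270H against +/+, with a median log2 difference of 0.03, equal to that of all genes at 2 decimals. Around *H19*, *Igf2* and *Cdkn1c*, 7 of the 12 tested genes were called lower, where 6.36% of all genes were. Those 3 imprinted genes themselves were up, and a link between these directions was not tested. On the log2(RPKM + 1) scale the largest fall among the called ones was that of *Cd81*, a tetraspanin gene, at 211 and 216 RPKM in +/+, 183 and 133 in flox/flox and 103 and 111 in R270H/R270H (log2 difference -0.996, SE 0.17, limma adjusted p = 0.0279 against +/+). *Slc38a1*, an amino acid transporter gene 351378 bases from *Slc38a4*, fell by 0.86 on the log2 scale against +/+ (SE 0.17, limma adjusted p = 0.0373), where *Slc38a4* was up. It was 59.1 and 59.3 RPKM in +/+, 20.1 and 28.0 in flox/flox and 33.4 and 30.8 in R270H/R270H. The fall was thus larger in flox/flox, with a log2 difference of -1.28 against +/+ (limma adjusted p = 0.0193).

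*Pdk4*, a kinase that limits pyruvate use in mitochondria, lies 50329 bases from *Asb4* and had the same order of genotypes. It was 9.77 and 10.2 RPKM in +/+, 1 and 2.32 in flox/flox and 42.3 and 35.2 in R270H/R270H. Its log2 difference was 1.85 against +/+ (SE 0.26, limma adjusted p = 0.0168), 3.94 against flox/flox (adjusted p = 0.00245) and -2.09 between flox/flox and +/+ (adjusted p = 0.0167). The other 3 tested genes near *Asb4* went the other way against +/+ and were not called. The log2 differences were -0.74 for *Ppp1r9a*, -0.44 for *Pon3* and -0.94 for *Pon2*. *Gm6792*, 392583 bases from *Zim1*, was at the floor in all +/+ and flox/flox libraries and at 5.54 and 3.80 RPKM in R270H/R270H (log2 difference 1.49, SE 0.20, limma adjusted p = 0.0150 against +/+). It passed the filter only through R270H/R270H. Its values at the floor show no spread, so the SE and p-value do not measure its variation.

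Among these neighbours limma called 3 higher and 1 lower against flox/flox, and 2 higher and 5 lower in flox/flox against +/+. The neighbour counts also depended on single libraries, as the counts over all genes did. The count of 11 against +/+ was 0 without either +/+ library or R270H/R270H replicate 1 (12 unadjusted each time), 1 without R270H/R270H replicate 2 and 24 without either flox/flox library. The count of 4 against flox/flox was 1 without either +/+ library or R270H/R270H replicate 1, 2 without R270H/R270H replicate 2, 12 without flox/flox replicate 1 and 21 without replicate 2. That of 7 in flox/flox against +/+ was 0 without any 1 of the +/+ or R270H/R270H libraries (10 to 15 unadjusted), 17 without flox/flox replicate 1 and 25 without replicate 2. The whole chromosomes were level, since the median log2 difference between R270H/R270H and +/+ was -0.03 on chromosome 7 (732 genes), 0.02 on chromosome 6, -0.02 on chromosome 15, 0.01 on chromosome 17 and 0.06 on chromosome 11.

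**Figure D3:**
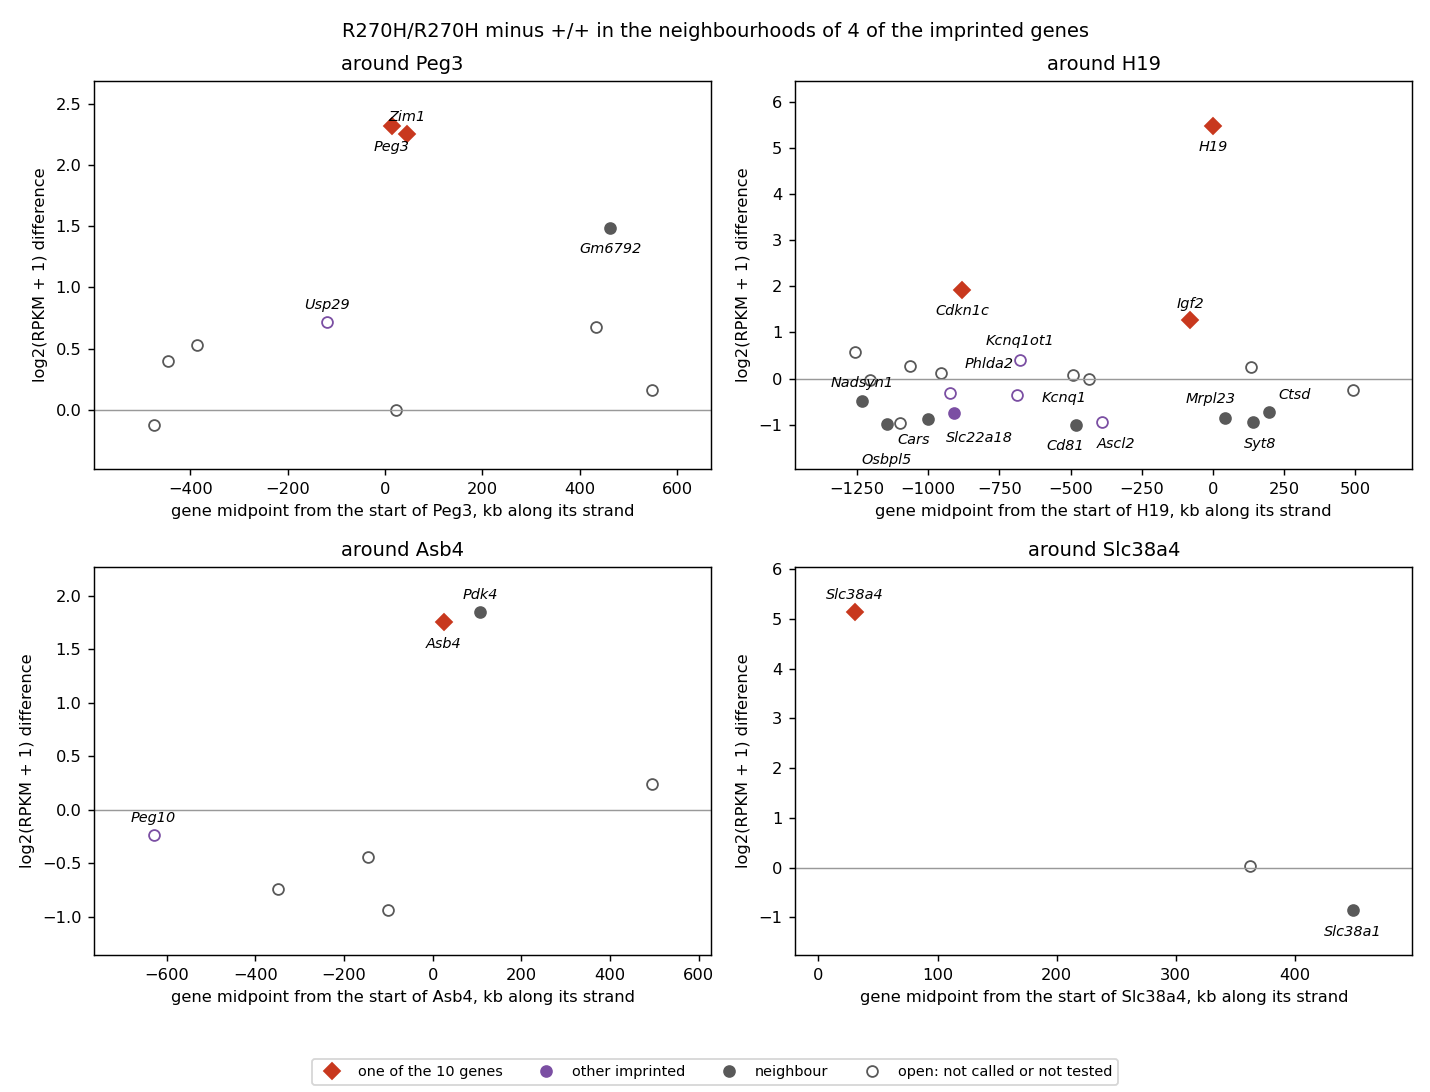
Difference in log2(RPKM + 1), R270H/R270H minus +/+, of genes around *Peg3*, *H19*, *Asb4* and *Slc38a4*, against the distance of each gene's midpoint from the start of that gene along its strand in kb. Diamonds are imprinted genes of the 10, purple circles other genes of the imprinted list and grey circles other neighbours, filled where limma called them; *Pdk4* at 1.85 lies beside *Asb4* at 1.75, and the filled circles around *H19* lie below 0.

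IGF2 acts through the IGF1 and insulin receptors, and binding proteins and stanniocalcins limit how much of it is free. Of 16 genes of this axis 10 were tested, and limma called 0 higher (1 at an unadjusted p under 0.05) and 2 lower in R270H/R270H against +/+. *Stc2*, an inhibitor of the protease that frees IGF from its binding proteins, was 28.4 and 29.1 RPKM in +/+, 23.1 and 25.8 in flox/flox and 6.61 and 8.12 in R270H/R270H. It was below +/+ by a log2 difference of -1.84 (SE 0.13, limma adjusted p = 0.00367) and below flox/flox by -1.61 (adjusted p = 0.00354). The protease genes of the list, *Pappa* and *Pappa2*, were at the floor in all 6 libraries. *Igfbp4*, an IGF binding protein gene, was 167 and 156 RPKM in +/+, 115 and 91.7 in flox/flox and 79.7 and 90.0 in R270H/R270H (log2 difference -0.92 against +/+, SE 0.15, limma adjusted p = 0.0237). *Igfbp5*, another of them, was 6.68 and 5.83, 1 and 1.59, and 10.7 and 8.83 RPKM. It was higher in R270H/R270H than in flox/flox (log2 difference 2.24, SE 0.19, limma adjusted p = 0.00391) and lower in flox/flox than in +/+ (-1.67, adjusted p = 0.0134). Over this list limma called 2 higher and 1 lower in R270H/R270H against flox/flox and 0 higher and 2 lower in flox/flox against +/+ (0 higher and 4 lower at an unadjusted p under 0.05). *Igf1r*, the IGF1 receptor gene, was under 4 RPKM throughout, at 1.52 and 1.51 in +/+, 1.04 and 2.32 in flox/flox and at the floor in R270H/R270H. *Insr*, the insulin receptor gene, went the other way, with means of 6.8, 5.06 and 10.1 RPKM in +/+, flox/flox and R270H/R270H. Both R270H/R270H libraries lay above all libraries of the other genotypes. It was not called against +/+ or flox/flox (limma adjusted p = 0.278 and 0.0656).

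Proteins that keep imprints through cell division include the zinc finger factors ZFP57 and ZFP445, their partner TRIM28, DNA methyltransferases and CTCF, which binds the *H19* control region. The list used here also holds TET enzymes, which oxidise methylated cytosine and so do not keep it. Of the 17 genes of this mixed list 12 were tested, and limma called 1 higher and 1 lower in R270H/R270H against +/+. *Zfp445* was 34.4 and 34.7 RPKM in +/+, 18.0 and 24.9 in flox/flox and 63.6 and 57.5 in R270H/R270H (log2 difference 0.79 against +/+, SE 0.17, limma adjusted p = 0.0444, and 1.47 against flox/flox, adjusted p = 0.00791). *Zfp57* went the other way, at 3.30 and 4.14, 2.58 and 2.04, and 1.47 and 1.44 RPKM (log2 difference -0.94 against +/+, SE 0.17, limma adjusted p = 0.0308). It reached 4 RPKM in +/+ replicate 2 only, so it was tested only through the genotype in which it was highest. *Tet3*, which oxidises methylated cytosine, was 10.4 and 10.3, 5.94 and 9.99, and 19.7 and 19.8 RPKM. It was called against flox/flox (log2 difference 1.25, SE 0.23, limma adjusted p = 0.0213) but not against +/+ (adjusted p = 0.0667). Over the list limma called 4 higher and 1 lower against flox/flox, and 0 in flox/flox against +/+ (4 at an unadjusted p under 0.05). The median log2 difference of the 12, which include *Tet2* and *Tet3*, was 0.36 against +/+ and 0.27 against flox/flox. Over all genes it was 0.03 in each.

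Fetal genes that share regulators with *H19* and *Igf2* were looked at last. *Afp*, the fetal liver protein alpha-fetoprotein, is turned down after birth by ZHX2, which also turns down *H19* in mouse liver. *Afp* was at the floor in all +/+ and flox/flox libraries and at 8.42 and 7.73 RPKM in R270H/R270H (log2 difference 2.18 against each, SE 0.14, limma adjusted p = 0.00367 and 0.00225). It reached 4 RPKM only in R270H/R270H. Its values at the floor show no spread, so the SE and p-values do not measure its variation. *Zhx2* itself was 6.32 and 6.25, 6.35 and 8.84, and 6.78 and 6.78 RPKM and was not called, and *Gpc3*, a further target of ZHX2, was at 1.27 RPKM or less. *Igf2bp3*, an RNA-binding protein that binds *Igf2* mRNA, was 5.94 and 5.98, 3.87 and 3.11, and 10.6 and 11.2 RPKM. Its log2 difference was 0.77 against +/+ (SE 0.13, limma adjusted p = 0.0266), 1.41 against flox/flox (adjusted p = 0.00494) and -0.64 in flox/flox against +/+ (adjusted p = 0.0424). *Hmga2*, a chromatin protein of fetal cells, was 19.1 and 18.8, 9.29 and 12.8, and 21.1 and 20.9 RPKM. It was higher in R270H/R270H than in flox/flox (log2 difference 0.88, SE 0.16, limma adjusted p = 0.0215) and lower in flox/flox than in +/+ (adjusted p = 0.0469). Of the 8 fetal genes in the list with *Igf2bp3* and *Hmga2*, which are targets of the microRNA let-7, 3 were tested, and *Lin28a*, *Lin28b* and *Trim71* were at the floor in all 6 libraries. Limma called 1 of the 3 higher against +/+, 2 against flox/flox, and 2 lower in flox/flox against +/+.

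Over the IGF, imprint, let-7 target and ZHX2 lists limma made 21 calls in the 3 comparisons together. The lists were chosen with earlier results of these data known, so this count is a description. It depended on single libraries, as the counts over all genes did. There were 5 without +/+ replicate 1, +/+ replicate 2 or R270H/R270H replicate 2, 2 without R270H/R270H replicate 1, 55 without flox/flox replicate 1 and 62 without flox/flox replicate 2.

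**Figure D4:**
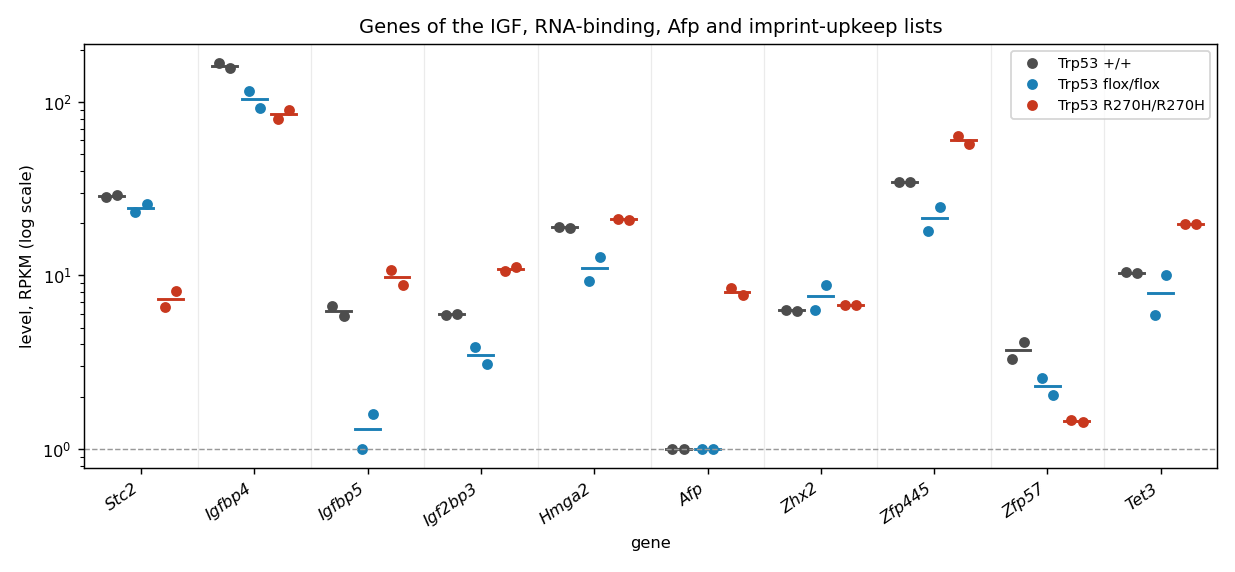
Level in RPKM, on a log axis, of 10 genes of these lists; points are libraries, short lines the means of the 2 libraries of a genotype and the dashed line the floor of 1 RPKM. *Afp*, *Igf2bp3*, *Zfp445* and *Tet3* are highest in R270H/R270H, *Stc2* and *Zfp57* are lowest there, and *Zhx2* differs little.

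The genes whose levels followed *H19* and *Peg3* most closely over the 6 libraries were sought among 3537 others that passed the filter and ranged over at least 1 on the log2 scale. With 6 libraries in 3 genotypes such correlations are close to 1 for many genes, so they only describe these libraries. Nearest to *H19* were *Upk2* (Pearson r = 0.9998), *Mt3* (0.998), *Comp* (0.998), *Cdh3* (0.998) and *1700020N18Rik* (0.998). *Upk2*, a plaque protein of the urinary tract lining, was at the floor in +/+, 1 and 1.30 RPKM in flox/flox and 8.36 and 9.07 in R270H/R270H, and *Mt3*, a metallothionein gene, reached 13.4 and 13.0 there from 1.54 or less elsewhere. All 5 were at 1.54 RPKM or less in both other genotypes and reached 4 RPKM only in R270H/R270H. This pattern follows from their choice by likeness to *H19*. Nearest to *Peg3* were *Rnf149* (r = 0.999), *Tex15* (0.999), *Pycr1* (0.999), *Gbx2* (0.998) and *Zfp60* (0.998). *Pycr1*, an enzyme of proline synthesis, was 24.3 and 25.8 RPKM in +/+, 4.47 and 6.73 in flox/flox and 73.4 and 68.3 in R270H/R270H, the same stepwise order as *Peg3*. *Zfp60* shares chromosome 7 with *Peg3*, and 0 of the genes nearest to *H19* shares that chromosome with it.

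**Figure D5:**
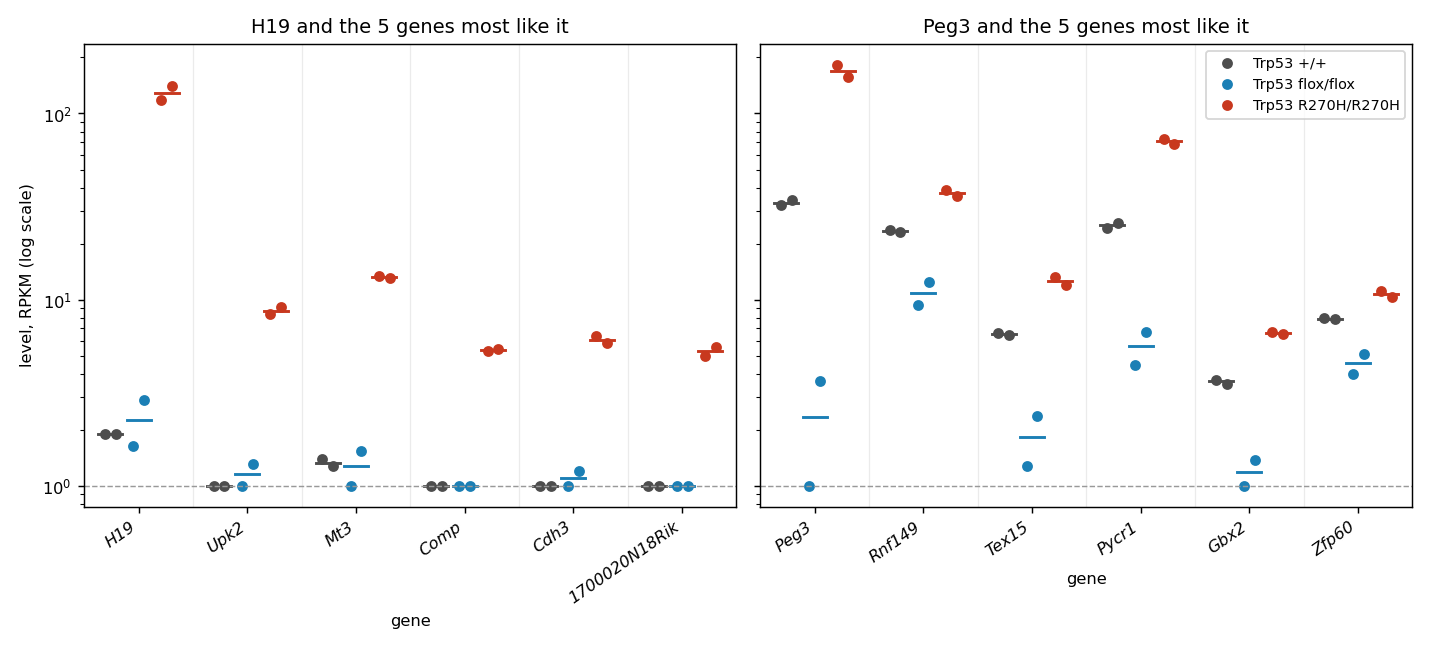
Level in RPKM, on a log axis, of *H19* (left) and *Peg3* (right) and the 5 genes most correlated with each over the 6 libraries; points are libraries, short lines genotype means and the dashed line the floor of 1 RPKM. The genes on the left are near the floor except in R270H/R270H, and those on the right are lowest in flox/flox and highest in R270H/R270H.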

How the data were processed

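Poly(A) RNA of 6 organoid preparations, 2 of each *Trp53* genotype, was sequenced by the authors from strand-specific Illumina libraries. They aligned reads to mm10, used StrandNGS for gene-level values and deposited RPKM; the version, annotation and strand setting are not given in the sources used here. The floor of 1 RPKM was read from the values. Genes were placed by Entrez identifier with RefSeq on GRCm38.p6, and exons were taken from GENCODE M21.

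Groups followed the sample titles. With R 4.3.3 and limma 3.58.1, log2(RPKM + 1) of the 10042 genes reaching 4 RPKM in some library was fitted over all 6 libraries (lmFit, eBayes with trend, no block); p-values were two-sided and adjusted by Benjamini-Hochberg, with calls at 0.05. Limma replaced count tests because the table holds no counts. Python 3.11.15 made the tables. Ratios compare mean RPKM and are lower bounds against a group at the floor. The code was tested on simulated data.

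The genes and lists were chosen with earlier results of these data known. Named outside the 10 were imprinted genes called in any comparison and the 3 most abundant uncalled ones, up to 3 called neighbours and list genes with the largest change against +/+, and the 5 genes most like *H19* and *Peg3*. *Igf1r*, *Insr*, *Zhx2*, *Slc38a1* and list genes at the floor were added after their values were seen. The alternatives were other pseudocounts, filters, scalings, weights, blocks, fits of 2 genotypes and each library left out.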

Additional observations from a re-analysis of the deposited data

How the results depend on the processing

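Counts of limma calls are given in the order R270H/R270H against +/+, R270H/R270H against flox/flox and flox/flox against +/+. As reported, they were 1227, 2469 and 1133 over all genes, 1, 4 and 1 for other imprinted genes, and 11, 4 and 7 for neighbours, with 21 for the 4 companion lists together. With a weight for each genotype they were 5987, 534 and 150 over all genes, 7, 1 and 0 for other imprinted genes (4 unadjusted for the last), and 24, 1 and 2 for neighbours. With only the 2 genotypes compared they were 5721, 378 and 47, then 7, 1 and 0 (5 unadjusted), and 24, 1 and 0 (15 unadjusted). With only the floor as filter they were 1907, 3056 and 1469, then 4, 7 and 3, and 11, 7 and 8. Median-of-ratios and upper-quartile scaling each gave 2 other imprinted genes in the first comparison, and a distance of 250 kb gave 7, 2 and 4 neighbours. With the replicate block the counts were 550, 1156 and 280 over all genes, 0, 3 and 0 for other imprinted genes (4 and 5 unadjusted), 4, 2 and 3 for neighbours, and 12 for the companion lists.

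Leaving out 1 library gave 0 to 5746, 165 to 7241 and 8 to 6891 calls over all genes, 0 to 7, 0 to 8 and 0 to 8 for other imprinted genes, 0 to 24, 1 to 21 and 0 to 25 for neighbours, and 2 to 62 for the companion lists. The count of the 10 genes without overlap, 9, 9 and 6, was 9 to 10, 9 to 10 and 6 to 9. The spread of the flox/flox libraries enters all 3 comparisons, and the lone library left of a genotype is assumed to vary like the others. Of the log2 differences of the 10 genes, 0 changed sign where the libraries did not overlap, and 21 of 210 moved by more than the s.d. between libraries, mainly with a pseudocount of 0.1, which widened the difference of *H19* to +/+ from 5.48 to 6.01.

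Same-numbered libraries share only a number: their deviations from the genotype means correlated at 0.12 (+/+ with flox/flox), -0.29 (+/+ with R270H/R270H) and -0.20 (flox/flox with R270H/R270H). The replicate block therefore tests no known pairing. With the R270H/R270H numbers exchanged, chosen after seeing the data, it gave 941, 2276 and 873 calls over all genes, and 6, 3 and 7 for neighbours. Levels under the floor of 1 RPKM are unknown.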
